A study of Homo sapiens with 3 samples.

Results

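The clustered protocadherins are cell-adhesion genes that stand in 3 tandem arrays, alpha, beta and gamma, on the long arm of human chromosome 5. Members were the protein-coding genes on that chromosome whose symbol starts with PCDHA, PCDHB or PCDHG, which gave 53 of 20052 annotated protein-coding genes: 15 alpha, 16 beta and 22 gamma. Loops were assigned to them by position, and 263 of 279618 listed loops had an end in an array. The study asked how chromosome structure depends on ORC2, which belongs to the origin recognition complex, the protein assembly that binds DNA where replication begins. It used Hi-C, in which contacts between distant DNA segments are captured by crosslinking and ligation and read by sequencing, on 3 samples of the human colorectal carcinoma line HCT116. The groups were an ORC2 deletion, made by CRISPR/Cas9 and represented by 1 clone, an ORC2 rescue, which is a selected clone expressing ORC2 from a vector, and wild-type, which is the parental line. All 3 groups were p53-/-, so wild-type refers to ORC2 alone. Each group had 1 library.

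The deposited loop list names no sample. It gives the outer positions of each loop and a word by which the authors classed it, conserved gain, conserved lost or not conserved, called gained, lost and not conserved here. Which libraries a gain or loss compares is not given in the sources used here, so no direction with respect to ORC2 was drawn and no test between conditions was possible. The list is one of changed loops by its name, so a loop that was not conserved is not taken to be unchanged. It holds no contact counts, and its depth is unknown. No expression was analysed here, so neither the cell line nor the loss of ORC2 was checked. Positions are in hg38. A loop end was read as the 5 kb inward from each listed position, and distances in kb are given from the start of PCDHA1.

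As background, each alpha and gamma protein is encoded by a variable exon of its own, with its own promoter, spliced to constant exons shared by the whole array, whereas beta genes have no constant exons. In neurons each cell transcribes a small set of members, chosen largely at random, which gives cells distinct surface identities. Choice depends on CTCF, a DNA-binding protein, and cohesin, which bring a promoter to enhancers lying downstream of the alpha and gamma arrays. Most promoters carry a conserved sequence element with the core CGCT, to which CTCF binds. PCDHAC1, PCDHAC2, PCDHGC3, PCDHGC4 and PCDHGC5, the C-type members, stand at the ends of the variable regions nearest to the constant exons and are regulated differently from the others.

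Sequence around the letters CGCT is shown for members whose starts or bodies met the loops described below. RefSeq promoter windows of GRCh38.p14, 300 bases with 250 before the gene start, were present for 47 of 53 members, all on the plus strand. The letters CGCT stood on the plus strand of 46 of these 47, the exception being PCDHA9, which held them on neither strand. Such a short word is common, and 70.0% of all 35116 promoter windows held it on either strand. Among words of 8 letters that hold CGCT, a most shared one was taken per array, with ties broken by letter order. No other word of 8 letters, with or without CGCT, was in more members of an array on the plus strand. The words taken were ATGTCGCT in 9 of 13 alpha members, GTGGCGCT in 13 of 14 beta members and GCCGCTGT in 11 of 20 gamma members. Each was found in no member of the other arrays, on either strand. They were picked for being shared, so the number of members that hold them is not a separate result. Of all 35116 promoter windows, those of the members included, 0.234%, 1.15% and 1.63% held them on either strand, in that order. All 3 words hold CGCT by construction, because only words with it were considered. In the windows at gene starts the core lay 38 to 81 bases before the start in the alpha members with the word and 40 to 95 bases before it in the gamma members. It lay 11 to 79 bases before it in 12 of the 13 beta members. Below, 26 bases of the plus strand around the core are printed 5′ to 3′ with the core in capitals, after their position in GRCh38.p14. PCDHA1 is the first member, and PCDHA7 is the alpha member whose start lay in most loop ends. PCDHB13, PCDHB14, PCDHGB4, PCDHGA8 and PCDHGB5 are the members with a gained loop end between their start and the next gene start. PCDHB1, whose start lay in most loop ends of all members, has none of the 3 words. The line shown for it holds the CGCT nearest to its start, 84 bases before it, and another lay 105 bases before it. Whether either is the conserved element was not tested, and the line is not taken to show that element.
PCDHA1, chr5:140786088-140786113: tggccacatgatgtCGCTgtacacca
PCDHA7, chr5:140834174-140834199: tggccacatgatgtCGCTctttaccg
PCDHB1, chr5:141051276-141051301: ctggggagttgagtCGCTcaatgcaa
PCDHB13, chr5:141213867-141213892: aggacgcgtggtggCGCTgcaggata
PCDHB14, chr5:141223265-141223290: gagacacatggtggCGCTacaggata
PCDHGB4, chr5:141387619-141387644: ctgactctgggcgcCGCTgttggcca
PCDHGA8, chr5:141392570-141392595: aggactgtaagcgcCGCTgttcacct
PCDHGB5, chr5:141397865-141397890: ctgactctgggcgcCGCTgttggcca
The 26-base windows of PCDHGB4 and PCDHGB5 were identical over all 26 bases, and those of PCDHB13 and PCDHB14 over 21 of 26. Between members of an array that carry the word, 13 to 26 bases matched in gamma, 17 to 25 in beta and 16 to 24 in alpha. All windows compared were lined up on the array's word, so its 8 bases matched by construction. As background, members are related copies of each other. How reads that map to several copies were treated is not given in the sources used here. Contacts within the arrays are reported as uncertain for that reason.

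Most loops of the arrays fell into a left system built on alpha and a right system built on gamma. The alpha array spans 226 kb (140786140 to 141012347), beta 198 kb (141051374 to 141249365) and gamma 182 kb (141330514 to 141512975), all on chromosome 5. Gaps of 39.0 kb and 81.1 kb separate them. In the list, 141 loops had an end in alpha, 101 in beta and 110 in gamma, and 89 loops joined 2 different arrays and are counted in both. Per 100 kb of span this is 62.3 loops for alpha, 51.0 for beta and 60.3 for gamma. Of the 89 loops between arrays, 86 joined alpha to beta and 3 joined beta to gamma. None joined alpha to gamma. A count of 0 among 263 allows a share of up to 1.14%, taking 3 counts of the total as the limit here and for other counts of 0 in the text, which covers counting error only.

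**Figure D1:**
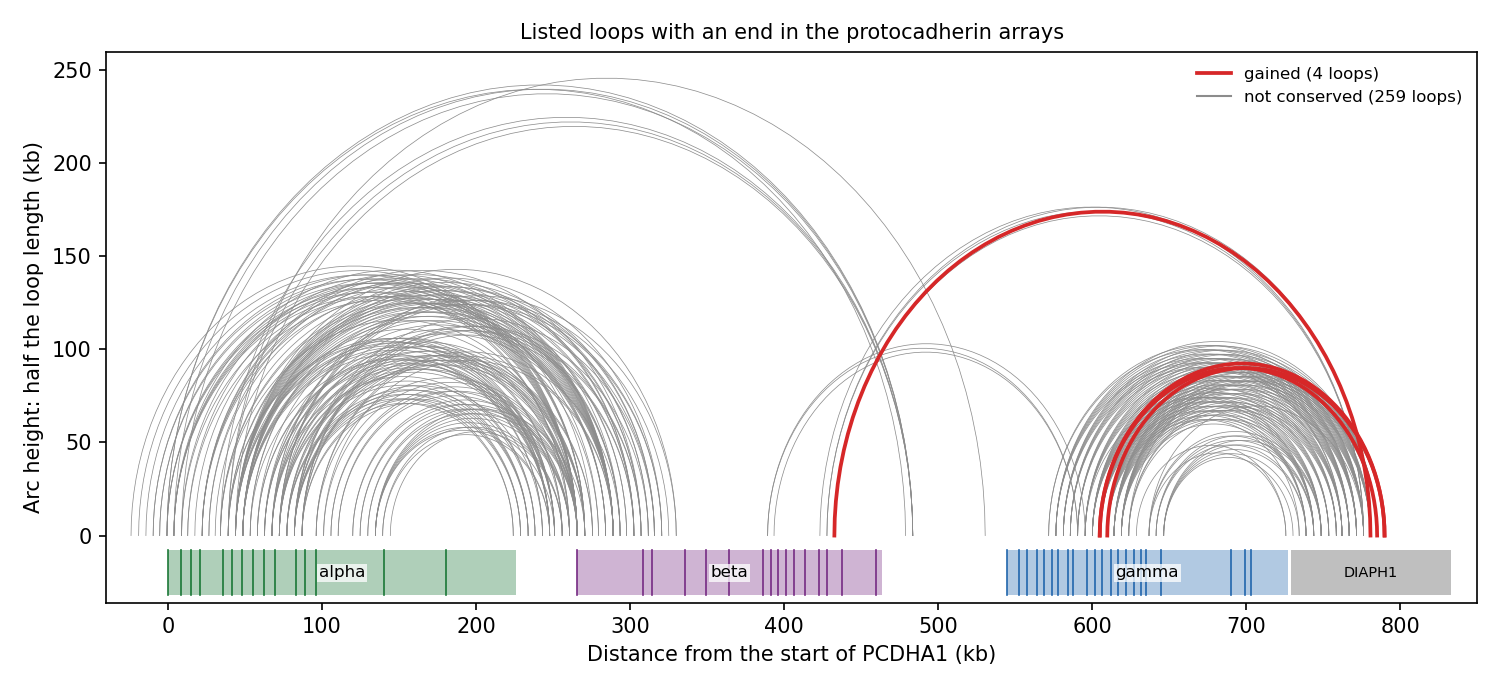
Listed loops with an end in the protocadherin arrays: the horizontal axis is the distance from the PCDHA1 start (kb), each arc joins the positions of a loop, the vertical axis is arc height, the loop length divided by 2 (kb), red arcs are gained and grey arcs not conserved, coloured strips are the arrays with a tick at each member start, and the grey strip is DIAPH1. The red arcs all end in DIAPH1, and no arc joins alpha to gamma.

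Most loops belonged to a few dense blocks. Chaining together loops that had both ends less than 10 kb apart gave 12 groups, and the 2 largest held 163 loops, 62.0% of the total. The largest joined 12 left positions in gamma, from 572 to 629 kb, with 13 right positions from 729 to 790 kb. It held 94 loops, or 60.3% of the 156 possible pairs of these positions. The next joined 22 left positions at 34.1 to 149 kb in alpha with 12 right positions at 219 to 276 kb, and held 69 loops, 26.1% of 264 possible pairs. The gamma block was thus the more completely filled. The third, with 41 loops, joined alpha at 3.84 to 77.3 kb with beta at 274 to 330 kb. Neighbouring loops of a block are not independent observations. Over the whole list a left position carried a median of 3 loops, as did left positions of the arrays, and right positions had a median of 5 in the arrays against 3 in the whole list.

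In alpha, loops ran downstream. All 141 alpha loops had their left end in the array, and 5 also had their right end there. The other ends of 42 lay in the gap between alpha and beta, those of 86 in beta, and those of 8 in the gap between beta and gamma. Left ends lay, with short gaps, from the loop end that holds the PCDHA1 start to 149 kb, past the start of PCDHAC1. The next 69.8 kb (140935463 to 141005268), where PCDHAC2 starts, held no loop end. The 2 right positions meeting alpha lay at 219 to 229 kb, at the end of the array that its members share. This is the side on which the enhancers of the alpha genes are known to lie, but enhancer positions were not analysed here and no loop end was assigned to one.

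Among alpha members the number of loops with the gene start inside an end varied from 0 to 15, with a median of 5. PCDHA7 had 15, PCDHA11 had 11, PCDHA10 had 8 and PCDHA12 had 7. PCDHA1 had 5, PCDHAC1 had 2 and PCDHA4 had 1. PCDHA13 and PCDHAC2 had none. The high counts by start did not form a single run, since PCDHA8 and PCDHA9, between PCDHA7 and PCDHA10, had 3 each. Counted by the stretch from each start to the next gene start, the order changed. PCDHA10 had 35 loops over 13.1 kb, PCDHA7 had 32 over 6.92 kb and PCDHA13 had 23 over 44.2 kb. PCDHA9 had 16 and PCDHA8 had 6, and PCDHAC2 had 5 up to the end of the array. A start count of 0 thus did not mean that a member had no loop end past its start. These counts describe 1 list with no error between libraries. The fullest left position (140829983 to 140834982), which holds the PCDHA7 start, joined 15 right positions between 248 and 483 kb. Gene bodies give a different picture, because alpha bodies all run to the same end: 141 loops met the body of PCDHA1 and 5 that of PCDHAC2.

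The beta array was contacted at its alpha side. The right position with most loops in the arrays (141046743 to 141051742) held the start of PCDHB1 and had 24 loops, of 131 to 290 kb, of which 5 came from the left of the alpha array. The next (141070130 to 141075129) had 18 loops and no protein-coding gene. It lies between PCDHB1 and PCDHB2. PCDHB1, the first beta member, had 83 loops in the stretch from its start to the next gene start, against 7 for PCDHB2 and 10 for PCDHB3. That stretch is 43.2 kb long, against 5.86 kb for PCDHB2, so the counts are not per length. No alpha loop ended beyond 330 kb within beta, although the array runs on to 463 kb.

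Elsewhere beta was sparse. Of 16 beta bodies, 9 met a loop end and 7 did not: PCDHB4, PCDHB5, PCDHB6, PCDHB9, PCDHB10, PCDHB11 and PCDHB15. The longest empty stretch of the array was 59.3 kb (141116058 to 141175360), where PCDHB4, PCDHB5, PCDHB6 and PCDHB7 start. The 8 loops with a left end in beta all left from PCDHB7 onward. Of these 3, of 197 to 206 kb, ran to gamma, where PCDHGA6 starts in the end met by 2 of them. The other 5, of 344 to 353 kb, passed over the whole gamma array to DIAPH1. PCDHB14 had 2 of them at its start and PCDHB13 had 3.

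**Figure D2:**
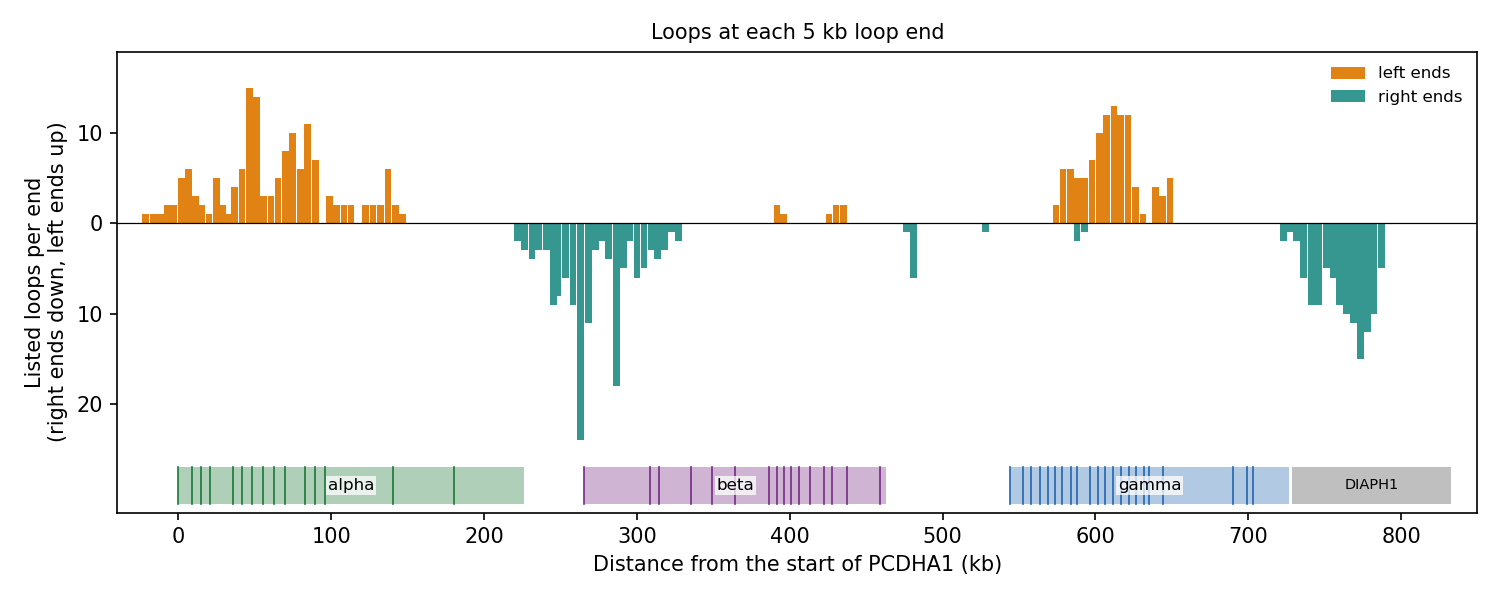
Number of listed loops (vertical axis) at each 5 kb loop end of the 263 array loops by distance from the PCDHA1 start (kb, horizontal axis), with left ends as orange bars upward, right ends as green bars downward, and strips for the arrays, member starts and DIAPH1. Most left ends are in alpha and gamma, and the right end with most loops, 24, is at PCDHB1.

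Gamma loops ran downstream into a single gene. Of 110 gamma loops, 107 had their left end in the array, and 104 of them ended to its right, every one within the body of DIAPH1 (141515021 to 141619000). DIAPH1, the gene next to gamma, encodes a formin that nucleates actin filaments. All 110 listed loops that met DIAPH1 had an end in the arrays: 109 ended to the right of gamma, and 1, within gamma, had a right end that spans the last bases of the array and the first of DIAPH1. Right ends past gamma covered DIAPH1 from 729 to 790 kb, and the fullest (141557193 to 141562192) had 15 loops. Enhancers of the beta and gamma genes are known to lie on this side of the array in mouse, and they too were not placed here.

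Left ends in gamma lay, with a short gap, from 572 to 651 kb. They spared the first 27.3 kb of the array, where PCDHGA1, PCDHGA2, PCDHGA3, PCDHGB1 and PCDHGA4 start, and 69.3 kb at 141437444 to 141506752, where PCDHGC3, PCDHGC4 and PCDHGC5 start. With PCDHAC2, 4 of the 5 C-type members therefore had no loop end at their start, and PCDHAC1 had 2. Over all 53 members, 33 had a start in a loop end. By RefSeq start sites, 30.9% of protein-coding genes with a promoter window did. Having none is thus common among genes and is not read as a trait of C-type members. Between these empty stretches the number of loops at the gene start was highest in the middle: PCDHGB5 had 13, PCDHGA8, PCDHGA9 and PCDHGB6 had 12 each, and PCDHGB4 had 10. Towards the left edge of the block PCDHGB2 had 2, and towards the right edge PCDHGB7 had 1, PCDHGA11 had none and PCDHGA12 had 3. Over all gamma members the median was 2.5. As in alpha, gene bodies overlap, and all 110 gamma loops met the body of PCDHGA1, whose start lay in none of their ends.

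**Figure D3:**
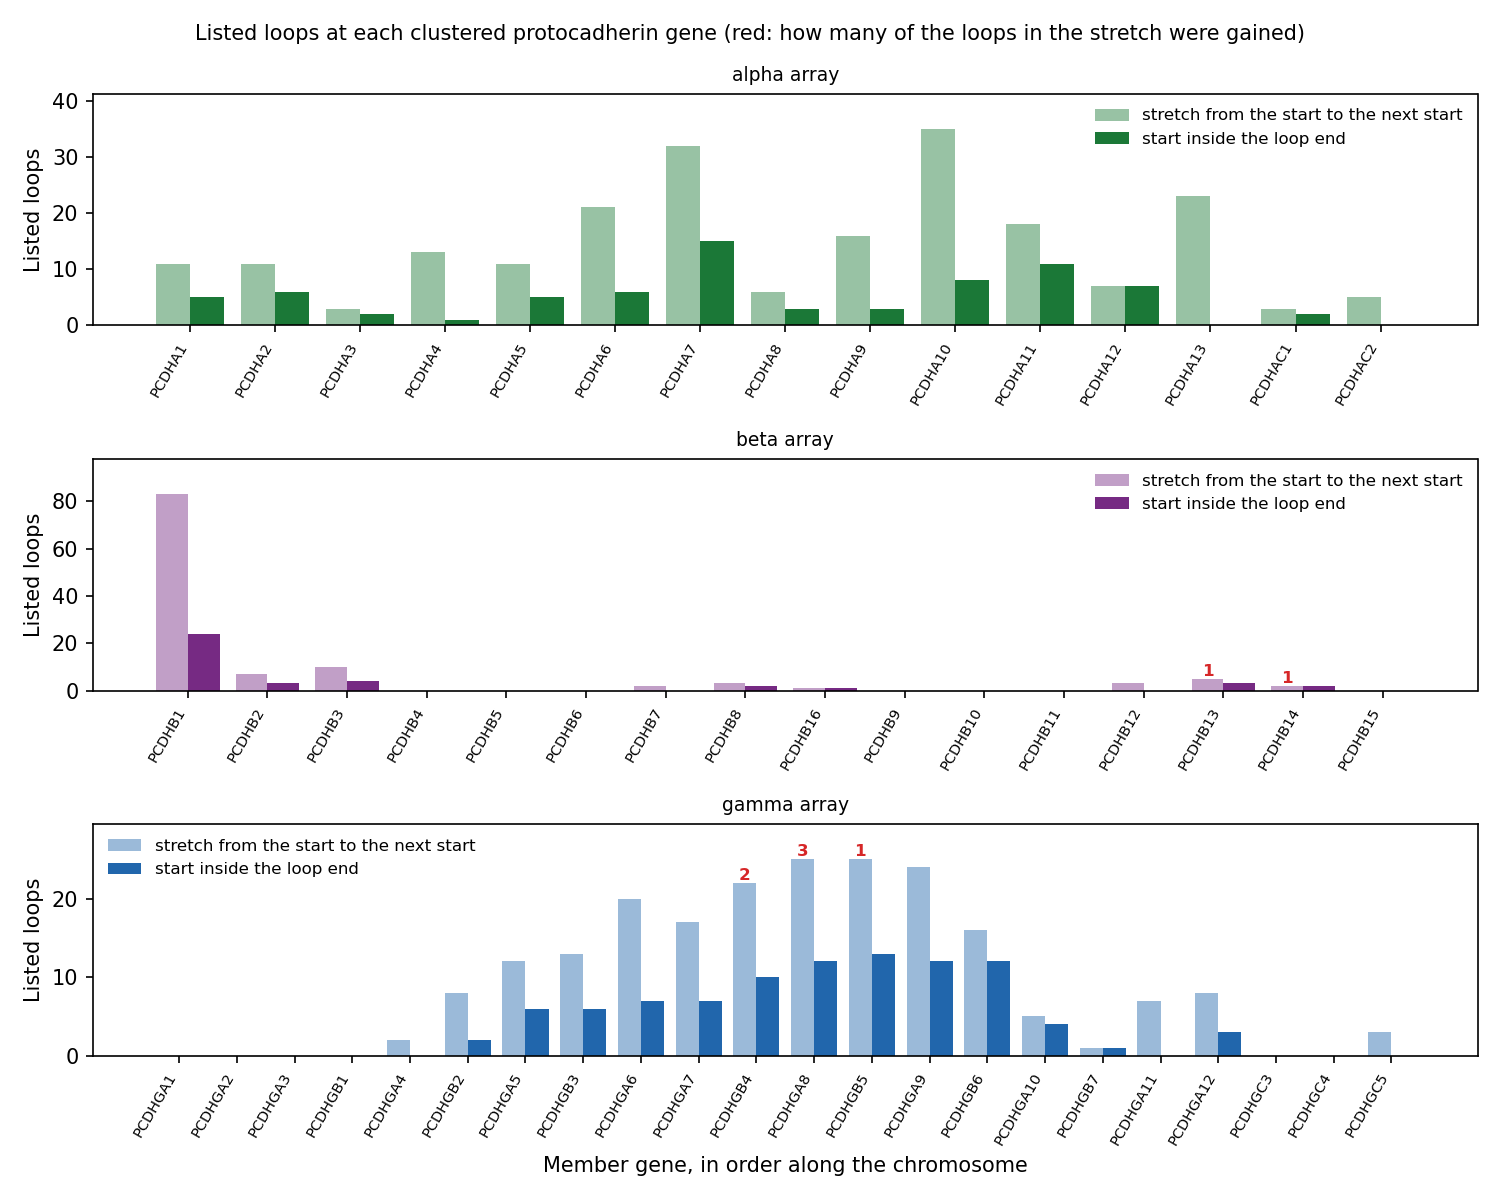
Listed loops (vertical axis) at each of the 53 members in chromosome order, for alpha, beta and gamma from top to bottom, with pale bars for loops ending in the stretch from the member's start to the next gene start, dark bars for loops with the start inside an end, and red numbers for gained loops in the stretch. PCDHB1 has the highest bars, 83 and 24, and red numbers stand at PCDHB13, PCDHB14, PCDHGB4, PCDHGA8 and PCDHGB5.

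Member starts lay inside loop ends more often than gene starts at large. By the RefSeq start sites, 31 of the 47 members with a promoter window (66.0%) had a start inside a listed loop end, against 30.9% of 15841 protein-coding genes with such a window. By gene body, 46 of 53 members met a loop end, against 49.4% of all protein-coding genes. Bodies of alpha and gamma members overlap and neighbouring starts share loop ends, so members are not independent, and no test was made. Of the 263 loops, 194 (73.8%) had a member start inside at least 1 end and 14 in both. These loops were chosen for an end in the arrays, where starts stand close together. The share over all listed loops was not computed, so this count is a description only.

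The class words set few array loops apart. Of the 263 loops, 4 were gained in the authors' deposited table (1.52%, 95% exact binomial interval 0.416 to 3.85%), against 1.96% of all 279618 listed loops. That share would give 5.17 gained loops in the arrays, so the gained share was near the background and is not a result about the arrays. No loop of the arrays was lost in the authors' deposited table, which allows a share of up to 1.14% by the limit of 3 counts (the exact binomial interval reaches 1.39%), against 0.196% of all listed loops. At that share 0.515 lost loops would be found in the arrays, so a lost share like that of the whole list was not detectable. The other 259 array loops were not conserved in the authors' deposited table. The intervals cover counting error only and treat neighbouring loops as independent. Among other listed loops as long as those of the arrays (84.0 to 491 kb), 1.6% were gained in the authors' deposited table, and on the rest of chromosome 5 the share was 2.30%.

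By array, the authors' deposited table had 0 gained of 141 alpha loops (up to 2.13% by the limit of 3 counts, and 2.58% by the exact interval), 1 of 101 beta loops (0.0251 to 5.39%) and 3 of 110 gamma loops (0.566 to 7.76%). These intervals overlap, so arrays were not told apart at this number of loops. None of the 89 loops between arrays was gained in the authors' deposited table, and all 4 gained loops were among the 109 that ended to the right of gamma, in DIAPH1.

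**Figure D4:**
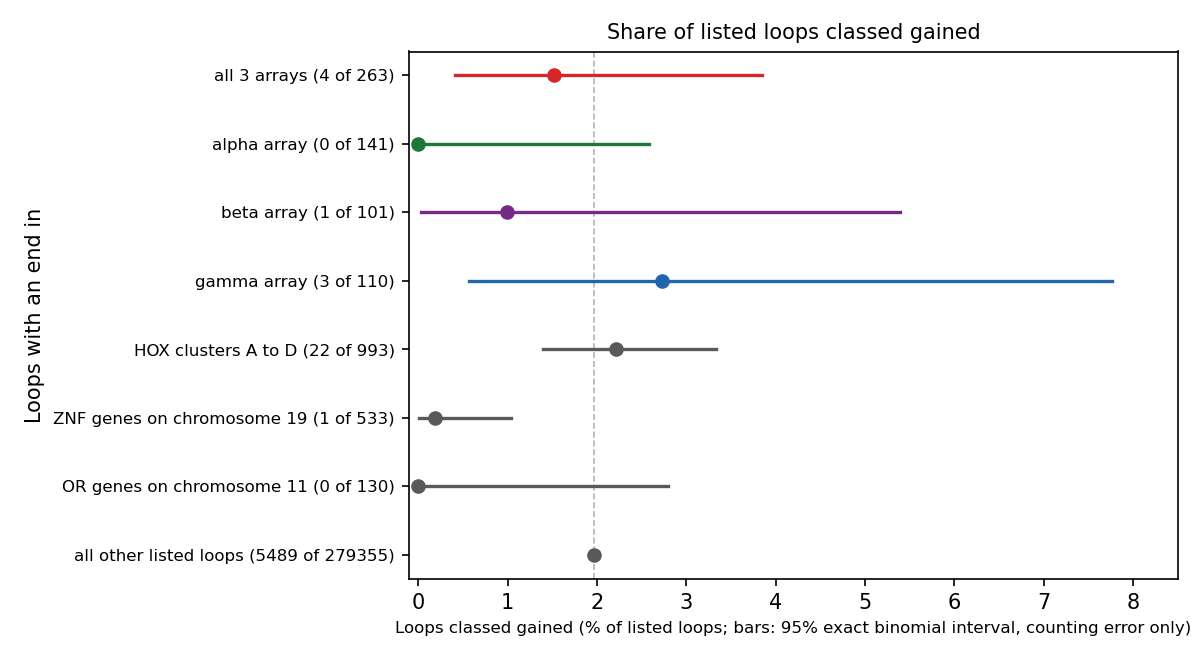
Share of listed loops classed gained in the authors' deposited table (percent, horizontal axis) for the protocadherin arrays, other tandem gene clusters and all other listed loops (dashed line), with points for shares and bars for 95% exact binomial intervals, which cover counting error only. The interval of the 3 arrays together, 0.416 to 3.85%, includes the share of all other listed loops, 1.96%.

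The gained loops met starts of a beta gene and 2 gamma genes. In the authors' deposited table the beta one ran 348 kb from 141218692, whose end meets the last bases of PCDHB13 and the start of PCDHB14, to 141566672. It was in a group of 5 loops, and its 4 neighbours within 10 kb at both ends were not conserved in the authors' deposited table. A further 2 gained loops of the authors' deposited table shared the left end at 141390937, which holds the start of PCDHGA8, and ran 180 kb to 141570990 and 185 kb to 141575812. The last ran 180 kb from 141395831, at the start of PCDHGB5, to 141575812. These 3 gamma loops in the authors' deposited table had 10 to 15 neighbours each that were not conserved, in the same block. Their left ends carried 25 loops running to DIAPH1, these 3 gained loops of the authors' deposited table included.

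The 3 gained gamma loops lay at the far edge of the block. No gamma loop ended farther into DIAPH1 than 141575812. Of the 15 gamma loops ending at 141570990 or beyond, 3 were gained in the authors' deposited table, against 0 of the 89 ending before it. That position was chosen because the gained loops lie there, so the contrast is a description. They were not the longest, since gamma loops to DIAPH1 ran up to 209 kb.

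Counting genes gives a larger number than counting loops. By gene body, in the authors' deposited table, 15 of the 46 members with a loop end met a gained one, against 12.7% of the 9907 genes with any listed loop end. The 15 were PCDHB13, PCDHB14 and the 13 gamma members from PCDHGA1 to PCDHGB5, and the same 3 loops stood behind the 13 gamma members, whose bodies run on through the same left ends. By gene start, 3 of the 33 members with a start in a loop end met a gained loop in the authors' deposited table (PCDHB14, PCDHGA8 and PCDHGB5), against 4.6% of 4887 genes. The 2 rules differ: members were counted by 1 annotated gene start each, and the 4887 genes by any RefSeq start site with a promoter window. By the latter rule 31 of 47 members had a start in a loop end. By the stretch from each start to the next, 5 of 40 did in the authors' deposited table, against 16.6% of 11596 genes. No member met a lost end in the authors' deposited table by any of these rules, against 1.85% of genes by body, 0.982% by start and 2.3% by stretch. The number of members at gained ends therefore followed the rule for assigning loops to overlapping genes.

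By median, array loops were shorter than listed loops at large, and gamma loops shortest. The median was 186 kb (95% order-statistic interval 180 to 193 kb) in the arrays, against 234 kb (233 to 235 kb) for all other listed loops. The middle of the distribution was also narrower, with quartiles of 152 and 240 kb in the arrays, against 133 and 375 kb for all other listed loops. The median was 162 kb (153 to 171 kb) for gamma, 215 kb (199 to 234 kb) for alpha and 248 kb (234 to 255 kb) for beta. The gamma interval lay below the other two, which met at 234 kb. These intervals treat neighbouring loops as independent, although 94 of the 110 gamma loops form a single block. Their separation is therefore a description and not a test. Alpha and beta share 86 loops and are not separate sets. No array loop was shorter than 84.0 kb or longer than 491 kb, whereas other listed loops ran from 6.28 kb to 1990 kb. The longest were 8 alpha loops of 440 to 491 kb, which passed over beta to the gap before gamma, where SLC25A2, a mitochondrial carrier gene, and TAF7, a transcription factor TFIID subunit gene, lie. Neither gene met a listed loop end.

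**Figure D5:**
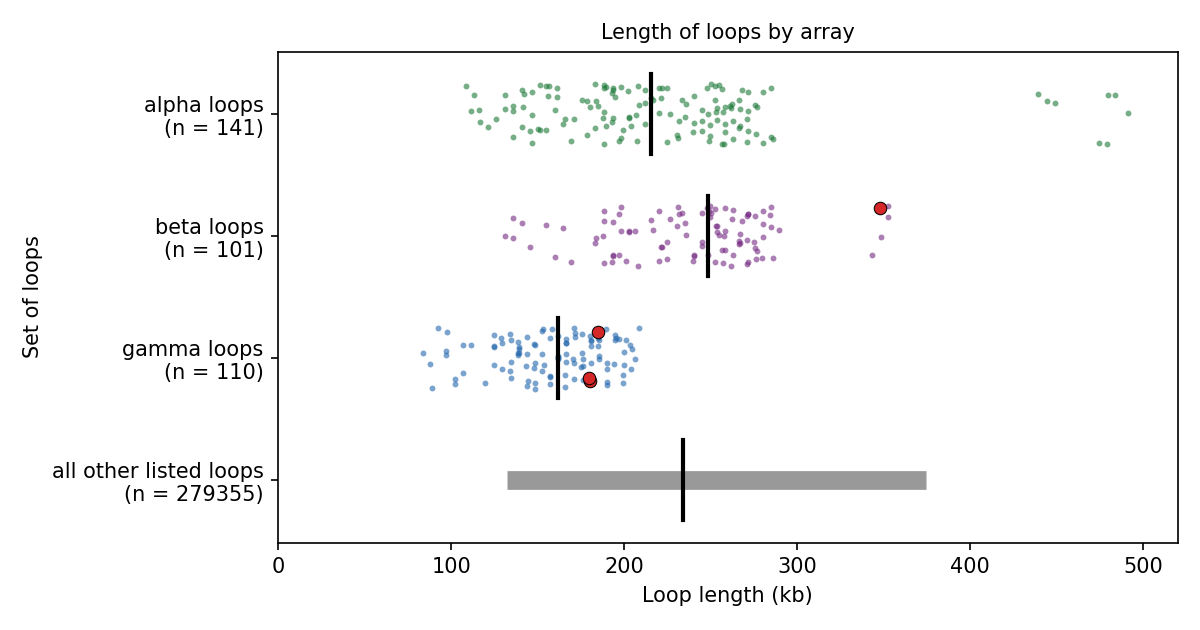
Loop length (kb, horizontal axis) for loops with an end in alpha, beta or gamma, each point a loop and red points gained loops, and for all other listed loops, shown as a grey bar between the quartiles (133 and 375 kb), with black bars for medians. Gamma loops have the lowest median, 162 kb, and the 3 gained gamma loops lie at 180 to 185 kb.

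The arrays were nearer to the HOX clusters than to odorant receptor or zinc-finger clusters in the share of gene bodies with loops, and their loops were shorter than HOX loops. By gene body, 46 of 53 clustered protocadherins (86.8%) met a listed loop, against 37 of 39 genes of HOX clusters A to D (94.9%), 27 of 171 OR genes on chromosome 11 (15.8%) and 33 of 250 ZNF genes on chromosome 19 (13.2%). All 15 alpha and 22 gamma bodies did, but within each of these arrays bodies overlap and run to the same end, which raises the share. In beta, where they do not, 9 of 16 did. By gene start 33 of 53 members did, and the other clusters were not counted that way. HOX genes encode homeotic transcription factors, OR genes odorant receptors and ZNF genes zinc-finger proteins. Median lengths were 186 kb in the arrays, against 375 kb for 993 HOX loops, 299 kb for 130 OR loops and 119 kb for 533 ZNF loops. Gained loops in the authors' deposited table were 22 for HOX (2.22%), 1 for ZNF (0.188%) and 0 for OR, which allows up to 2.31% by the limit of 3 counts and 2.80% by the exact interval, and no loop of these clusters was lost. The array interval of 0.416 to 3.85% includes the HOX share and overlaps the ZNF interval of 0.00475 to 1.04%.

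Few protocadherins outside the arrays met a listed loop. Of 12 non-clustered protocadherins 2 did, against 49.4% of all protein-coding genes: PCDH12 with 59 loops and PCDH1 with 28. These lie on chromosome 5 past DIAPH1, and none of their loops was gained or lost in the authors' deposited table. Of 13 genes of chromosome architecture and repression, 6 met a listed loop, a share near the same 49.4%: SMC3 and SMC1A, which encode cohesin core subunits, CTCF, the zinc-finger cofactor gene WIZ, the DNA methyltransferase gene DNMT3B and STAG1. SMC3 had 49 loops, DNMT3B 19, WIZ 17, and CTCF and SMC1A 1 each. Of these 6, only STAG1, a cohesin subunit gene, had gained loops in the authors' deposited table, 2 of its 15, and none had a lost one, against 12.7% and 1.85% of all genes with a listed loop end, so these counts are near the background.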

How the data were processed

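Hi-C was made with DpnII digestion from 3 HCT116 libraries, 1 per group, per the labels' protocols. Bowtie, hg19 and hg38 are listed, with no role, in the submitters' processing notes. How loops were called, normalised and thresholded is not given in the sources used here. Each class word in the list (unit: other) is the authors' own, as deposited. Of 279669 rows, 49 without a readable class and 2 repeats were left out. The 6 per-sample columns of the compartment table, named S1 to S3, match no sample label and were not used, so the compartment scores of the 4 bins of 250 kb across the arrays are not analysed here.

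Genes and promoter windows came from RefSeq tables of GRCh38.p14. They give no exons, so exon, intron and UTR were not assigned. An array ran from its first member's start to its last member's end. Members named were the first and last of each array, those with most, fewest or gained loops, and the C-type members; other members were named where empty stretches or loop counts at gene starts are listed, after their values were seen. The position overlap and joining steps were tested on simulated data. Python 3.11.15, pandas 2.3.3, numpy 2.4.6 and scipy 1.17.1 were used. Members and lists were chosen with earlier results of these data known. The planned comparison of protein sequences was not made.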

Additional observations from a re-analysis of the deposited data

How the results depend on the processing

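Of 38 alternative values, 33 stayed within limits, which were a factor of 1.5 for counts and the 95% interval for shares and medians. The 33 include the lost share, which was 0% at every setting, and the gene-body setting, which returned the same 263 loops. The tally is therefore not a measure of robustness. Loops with both ends in the arrays were by construction fewer, at 97, with 0% gained in the authors' deposited table and a median length of 234 kb. Members at a gained end numbered 5 by the stretch from each start to the next and 3 by the start itself, a setting chosen after seeing the data, against 15 by gene body. Across the remaining settings (ends of 1 bp, 10 kb inward or 5 kb outward, wider spans, gene bodies, loops of at least 100 kb) the arrays had 256 to 276 loops, with 1.45 to 1.56% gained and 0% lost in the authors' deposited table, and a median length of 186 to 190 kb. Members at a gained end numbered 13 to 16 by gene body with ends of 1 bp, 10 kb inward or 5 kb outward and with loops of at least 100 kb. The alternatives on compartment scores were not run because the columns match no label. No paired analysis was possible because no value in the loop list belongs to a sample. Without contact counts, what depth limits could not be examined.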
